A study of Mus musculus with 11 samples.

Results

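Tumor cDC1s lacking the transcription factor XBP1 were compared with control tumor cDC1s across every gene above 1 CPM (a count scaled to the size of its library) in at least 4 of the 11 RNA-seq pools of the series. This left 10951 of 24421 genes. The comparison used 4 XBP1ΔDC pools and 4 control pools of conventional type 1 dendritic cells sorted from B16 melanoma tumors, each pool made from 2 to 4 mice and 5000 to 20000 cells. XBP1ΔDC mice carried the genotype XBP1 fl/fl, CD11c-CRE, in which Cre driven by the *Itgax* promoter removes exon 2 of *Xbp1* in all cells that express CD11c, and not in cDC1s alone. Control replicates 1 to 3 were XBP1 fl/fl and control replicate 4 was XBP1 fl/fl, IRE1 fl/fl, all without Cre, so every pool carried floxed *Xbp1* alleles. The remaining 3 pools are named XBP1ΔDC IRE1truncDC here. Their mice had CD11c-CRE with both XBP1 fl/fl and IRE1 fl/fl, so that they also lose exons 20 and 21 of *Ern1*, the gene of IRE1, and they entered the fit as a further genotype. All mice were on a C57BL/6 background, of both sexes and 6 to 14 weeks old. No source states that pools of a genotype came from separate experiments, so the spread between them may be partly technical.

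The endoplasmic reticulum (ER) is where secreted and membrane proteins enter the secretory pathway, fold, and receive their first sugars and disulfide bonds before vesicles carry them to the Golgi. XBP1 is the transcription factor of the IRE1 branch of the unfolded protein response. IRE1 splices *Xbp1* mRNA, and the spliced form encodes XBP1s, which raises expression of ER genes. When XBP1 is missing, the RNase of IRE1 can also degrade other mRNAs, a process called RIDD. Dendritic cells are known for high IRE1 activity. The study worked with published lists of XBP1s targets and RIDD targets. The account here gives the functions and compartments of the genes that changed, with emphasis on genes that are on neither list.

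Pools had 22173308 to 26843486 counts in controls and 21889074 to 25334289 in XBP1ΔDC. *Xbp1* (chr11:5520659-5525893, GRCm38) stood at 244, 249, 254 and 271 CPM in control replicates 1 to 4 and at 130, 152, 161 and 165 CPM in XBP1ΔDC replicates 1 to 4. Its log2 fold change was -0.74 with a standard error (SE) of 0.0973, and counts per gene do not separate transcripts with and without the floxed exon. *Itgax*, whose promoter drives Cre, overlapped between groups, at 173 to 202 CPM in controls and 143 to 184 CPM in XBP1ΔDC. Levels of the cDC1 markers *Xcr1*, *Clec9a*, *Batf3* and *Irf8* also overlapped, with log2 fold changes of 0.01, 0.02, 0.02 and -0.06. Of the whole list of 27 cDC1 identity genes, however, 20 were lower (median -0.08), and its sum did not overlap, at 23589 to 25508 CPM in controls and 21468 to 22473 CPM in XBP1ΔDC. Only 1 member, the abundant *Naaa* (-0.51), separated the groups, at 3926 to 4356 CPM in controls and 2705 to 3052 CPM in XBP1ΔDC. The sum was not taken without *Naaa*, so its gap does not describe the list as a whole. T cell and neutrophil marker lists summed to at most 2.10 CPM and to under 1 CPM in these 8 pools, while B cell markers summed to 1.83 to 7.16 CPM in controls and 3.80 to 10.3 CPM in XBP1ΔDC, with *Pax5* and *Jchain* at 0 and all 3 tested members higher. Monocyte and macrophage markers summed to 773 to 1193 CPM in controls and 737 to 1090 CPM in XBP1ΔDC. Of their 11 tested members 9 were higher, with a median of 0.62, and the complement gene *C1qc* (1.27) had an unadjusted p of 0.0498 from edgeR and its highest level in XBP1ΔDC replicate 3. The part of these cells in the results was not tested. Melanoma markers summed to 12.9 to 77.4 CPM in controls and 16.8 to 86.5 CPM in XBP1ΔDC. The list of 10 stroma markers differed without overlap. It summed to 45.2 to 53.3 CPM in controls and 54.1 to 77.5 CPM in XBP1ΔDC, and to 47.0 to 54.5 CPM in XBP1ΔDC IRE1truncDC pools. The fibroblast marker *Pdgfra* was at 0 in all pools, and the endothelial *Vwf* was the most abundant member. The collagens *Col1a1*, *Col1a2* and *Col3a1* and the pericyte gene *Pdgfrb* made most of the difference between the group means. With the stroma sum as a covariate in the fit, all 51 lowered genes described below were still lower, with a median log2 fold change of -0.69 against -0.71 without it. That fit called 4 of them (*Itgb2*, *Slc1a5*, *Fcrla* and *Fam134c*) and none of the higher genes, and the part of stroma cells in the results was not tested.

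XBP1ΔDC pools differed from controls mainly by lower transcript levels. All XBP1ΔDC pools carried Cre and no control did, so loss of XBP1 and presence of Cre cannot be told apart in this comparison. A differentially expressed gene (DEG) had an adjusted p under 0.05 from edgeR's quasi-likelihood test and a fold change above 1.5, and 51 genes (0.466% of those tested) were lower DEGs while 3 (0.0274%) were higher. Without the fold limit 94 genes (0.858%) were lower and 4 (0.0365%) higher. At an unadjusted p under 0.05 the counts were 542 lower (4.95%) and 292 higher (2.67%). In every gene with an adjusted p under 0.05 the 4 XBP1ΔDC pools lay outside the range of the 4 control pools, a separation seen for 402 genes (3.67%) on the lower side and 179 (1.63%) on the higher side among all genes tested. The median log2 fold change over all genes was 0.005. These pools are bulk samples, in which fewer cells of a kind and less RNA per cell cannot be told apart. The lower DEGs fell by 1.51-fold to 5.02-fold, 13 of them by more than 1 on the log2 scale. Of the 51, 23 were on the XBP1s list (13) or the RIDD list (11), 1 of them on both, and 28 were on neither, *Xbp1* itself among these. Neither list holds *Itgb2*, *St3gal5* or *Fcrla*, although the text of the study counts the first 2 among RIDD targets and *Fcrla* as a candidate. Of the 98 genes with an adjusted p under 0.05, 51 lost it in at most 1 of the alternative settings and 19 in 11 or more. Among the 51, *Itgb2*, *Slc1a5*, *Fcrla* and *Fam134c* kept it in all settings. For the rest of the 51 the 1 setting was the stroma covariate. These 19 were *Rreb1*, *Idh2*, *Lman1*, *Nsdhl*, *Hspa5*, *Tmed10*, *Edem1*, *Oat*, *Ssr4*, *Ece1*, *Sdc3*, *Dnajc3*, *Tspan17*, *Sema4f*, *Krtcap2*, *Paqr7*, *Tapbp*, *Leprot* and *Vimp*.

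**Figure D1:**
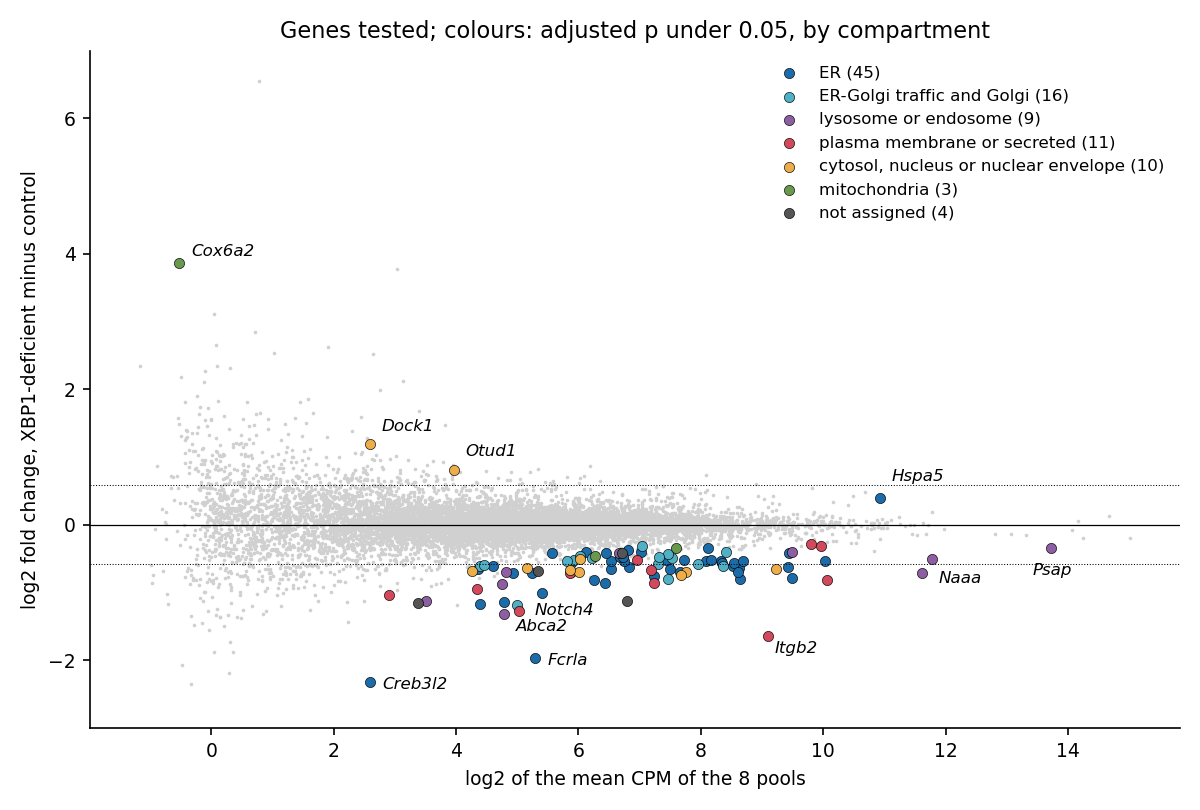
Each point is a gene, with the log2 of its mean CPM over the 8 pools on the x axis and its log2 fold change (XBP1-deficient minus control) on the y axis. Coloured points have an adjusted p under 0.05, with the colour giving the compartment of the encoded protein; dotted lines mark the 1.5-fold limit. Most coloured points (94 of 98) lie below 0, and ER proteins are the largest group of them.

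The 51 lower DEGs were sorted by the main location of their proteins, assigned by hand after the calls were known. The ER held 23 of them, and ER-Golgi traffic and the Golgi held 5. A further 8 act at the plasma membrane or are secreted, 5 act in lysosomes or endosomes, 6 in the cytosol or nucleus and 1 in the nuclear envelope, and 3 were not assigned. Among the 28 genes on neither list, 10 encode ER proteins, 4 proteins of ER-Golgi traffic and the Golgi, 7 cell surface or secreted proteins, 4 cytosolic or nuclear proteins, 1 a vesicle enzyme (*Entpd7*) and 1 a nuclear envelope protein (*Nup210*). The remaining gene, *2310067B10Rik*, was not assigned. No such assignment was made for genes that did not pass, so these shares have no background of their own. Gene lists of functions are described next with all their tested members, changed or not. These lists were chosen with earlier results of these data known, so they are not an independent background either.

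The machinery that feeds proteins into the ER was lower as a group. Of 31 tested genes for ER translocation, signal peptidase and ribosome docking, 29 were lower, 12 had an adjusted p under 0.05 and none of those rose, with a list median of -0.31. *Sec61b*, a subunit of the translocon channel, stood at 99.5, 102, 88.8 and 96.9 CPM in controls and at 58.9, 54.2, 59.4 and 48.2 CPM in XBP1ΔDC. All 4 XBP1ΔDC pools were below all controls (log2 fold change -0.81, SE 0.0843, adjusted p = 0.000381 from edgeR). *Sec61a1*, the channel itself (-0.69), *Serp1*, which binds the channel (-0.63), and the signal peptidase subunits *Spcs2* (-0.66) and *Spcs3* (-0.61) were DEGs too. The translocon-associated *Ssr1*, *Ssr2*, *Ssr3*, *Ssr4*, *Tram1*, *Sec11c* and the Sec61-associated *Ncln* passed the test between -0.54 and -0.37, below the fold limit. On neither of the study's lists were 19 members, of which *Ssr2* and *Ncln* passed. Their median was -0.17. *Sec62* and *Sec63*, which assist the same channel, had log2 fold changes of -0.16 and -0.20 with overlapping groups.

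Sugar transfer showed the same direction. In the list of N-glycan assembly and oligosaccharyltransferase genes, 36 of 46 were lower and 8 passed the test, all of them lower. The 35 members on neither of the study's lists had a median of -0.10, and *Rpn2* and *Alg2* passed among them. The oligosaccharyltransferase moves the finished glycan onto new proteins, and its subunits *Rpn1* (-0.80), *Ddost* (-0.57), *Rpn2* (-0.56), *Krtcap2* (-0.56), *Stt3a* (-0.53) and *Ostc* (-0.53) all fell. *Stt3b*, the catalytic subunit of the other form of this enzyme, had a log2 fold change of -0.05 with overlapping groups (unadjusted p = 0.647 from edgeR). *Alg2*, a mannosyltransferase that builds the glycan precursor, fell by 0.66 and *Mlec*, which binds early glycans, by 0.64 on the log2 scale. *Dpy19l1*, of a family that attaches mannose to tryptophan, fell by 0.52.

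Disulfide chemistry was affected in part of its family. Of 25 isomerases and thiol oxidases 22 were lower and 6 were DEGs, namely *P4hb* (-0.78), *Erp44* (-0.76), *Txndc5* (-0.69), *Txndc11* (-1.01), *Pdia5* (-0.86) and *Qsox1* (-0.59). The last 3 were on neither list. *Txndc11* was at 61.6, 59.5, 52.1 and 52.3 CPM in controls and at 26.1, 33.4, 26.1 and 26.2 CPM in XBP1ΔDC, lower in every pool (SE 0.11, adjusted p = 0.000495 from edgeR). The abundant isomerases *Pdia3*, *Pdia4* and *Pdia6* had log2 fold changes of 0.06, -0.04 and -0.14, with groups that overlapped.

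Among 26 ER chaperones and co-chaperones 20 were lower, with a median of -0.22, and 4 fell: *Dnajb9* (-1.17), *Hyou1* (-0.66), *Dnajc3* (-0.52) and *Cnpy3* (-0.41), the chaperone of Toll-like receptors. That receptor list had a median of 0.03 over 19 genes. *Dnajb9*, *Hyou1* and *Cnpy3* are on the XBP1s list, and the 20 chaperone genes on neither list had a median of -0.17. *Hspa5*, which encodes the main ER chaperone BiP, was higher. It stood at 1631, 1704, 1647 and 1718 CPM in controls and at 2134, 2253, 2272 and 2173 CPM in XBP1ΔDC. The groups did not overlap, but the log2 fold change of 0.40 was below the fold limit (SE 0.0836, adjusted p = 0.0444 from edgeR), and this call was lost in 14 of 22 alternative settings. *Hsp90b1* had a value of 0.34 and *Calr* of 0.13, both with overlapping groups. In ER-associated degradation, where misfolded proteins are taken out of the ER, *Edem1* (-0.35), *Edem2* (-0.42) and *Vimp* (-0.48) fell among 41 genes with a median of -0.06. The list of ER membrane protein insertion genes had no member past the test (18 tested, median -0.03), and its smallest p belonged to *Wrb* (-0.65) and *Emc10* (-0.21).

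Genes for leaving and shaping the ER followed. In the list of cargo receptors, COPI coat and retrieval 35 of 42 genes were lower and 8 passed. The cargo receptor *Surf4* (-0.60) was a DEG. The p24 proteins *Tmed2* (-0.53), *Tmed9* (-0.49) and *Tmed10* (-0.31), the lectins *Lman1* (-0.53) and *Lman2* (-0.40), *Ergic3* (-0.46) and the coatomer subunit *Cope* (-0.43) passed below the fold limit. Of these 8 only *Surf4* and *Lman2* are on the study's lists. The 29 COPII and ER exit genes had a median of -0.10, with 23 lower and 10 of those at an unadjusted p under 0.05 from edgeR. *Bet1*, a SNARE of ER-Golgi vesicles, alone passed after adjustment. It stood at 24.8, 26.1, 24.96 and 25.4 CPM in controls and 17.7, 15.5, 17.8 and 15.6 CPM in XBP1ΔDC (log2 fold change -0.61, SE 0.104, adjusted p = 0.0126 from edgeR). *Fam134c*, an ER-phagy receptor that directs ER fragments to lysosomes, was at 33.6, 37.3, 42.2 and 38.9 CPM in controls and 18.6, 18.0, 14.1 and 18.2 CPM in XBP1ΔDC (-1.14, SE 0.119, adjusted p = 0.000381 from edgeR). Its relatives *Fam134a* (-0.34) and *Fam134b* (-0.16) missed the test. *Cdk5rap3* (-0.70) belongs to the ufmylation complex at the ER surface. ER shape and ER-phagy genes were lower in 19 of 25 cases (median -0.16), and *Fam134c* and *Cdk5rap3* passed.

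Calcium and zinc proteins of the early secretory pathway also fell. Of 25 genes in a list of ER calcium handling genes and nucleobindins 19 were lower (median -0.12), and *Nucb1*, *Nucb2*, *Stim2* and *Pkd1* passed. Only *Stim2* among these was assigned to the ER, and *Pkd1* was assigned to the plasma membrane. *Nucb1* and *Nucb2* encode nucleobindins, calcium-binding proteins of the Golgi. *Nucb2* was at 45.6, 44.8, 43.6 and 43.2 CPM in controls and 16.1, 19.2, 17.8 and 24.9 CPM in XBP1ΔDC, without overlap (-1.18, SE 0.151, adjusted p = 0.00155 from edgeR). *Nucb1* fell by 0.80 (SE 0.0788), without overlap, and *Stim2*, an ER calcium sensor on the RIDD list, by 0.71. *Slc39a7*, which moves zinc out of the ER, was at 140, 140, 136 and 133 CPM in controls and 87.5, 93.4, 92.4 and 81.8 CPM in XBP1ΔDC (-0.63, SE 0.0655, adjusted p = 0.000381 from edgeR). *Slc30a5*, which moves zinc into the Golgi, fell by 0.49. In all, 14 of 16 zinc transporters tested were lower, and these 2 passed. In the Golgi list 38 of 51 genes were lower, and *Papss1* (-0.64), which makes the sulfate donor for glycans, *St3gal5* (-0.58), which makes ganglioside GM3, *Mgat2* (-0.58), which builds complex N-glycans, and the protease *Furin* (-0.48) passed.

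**Figure D2:**
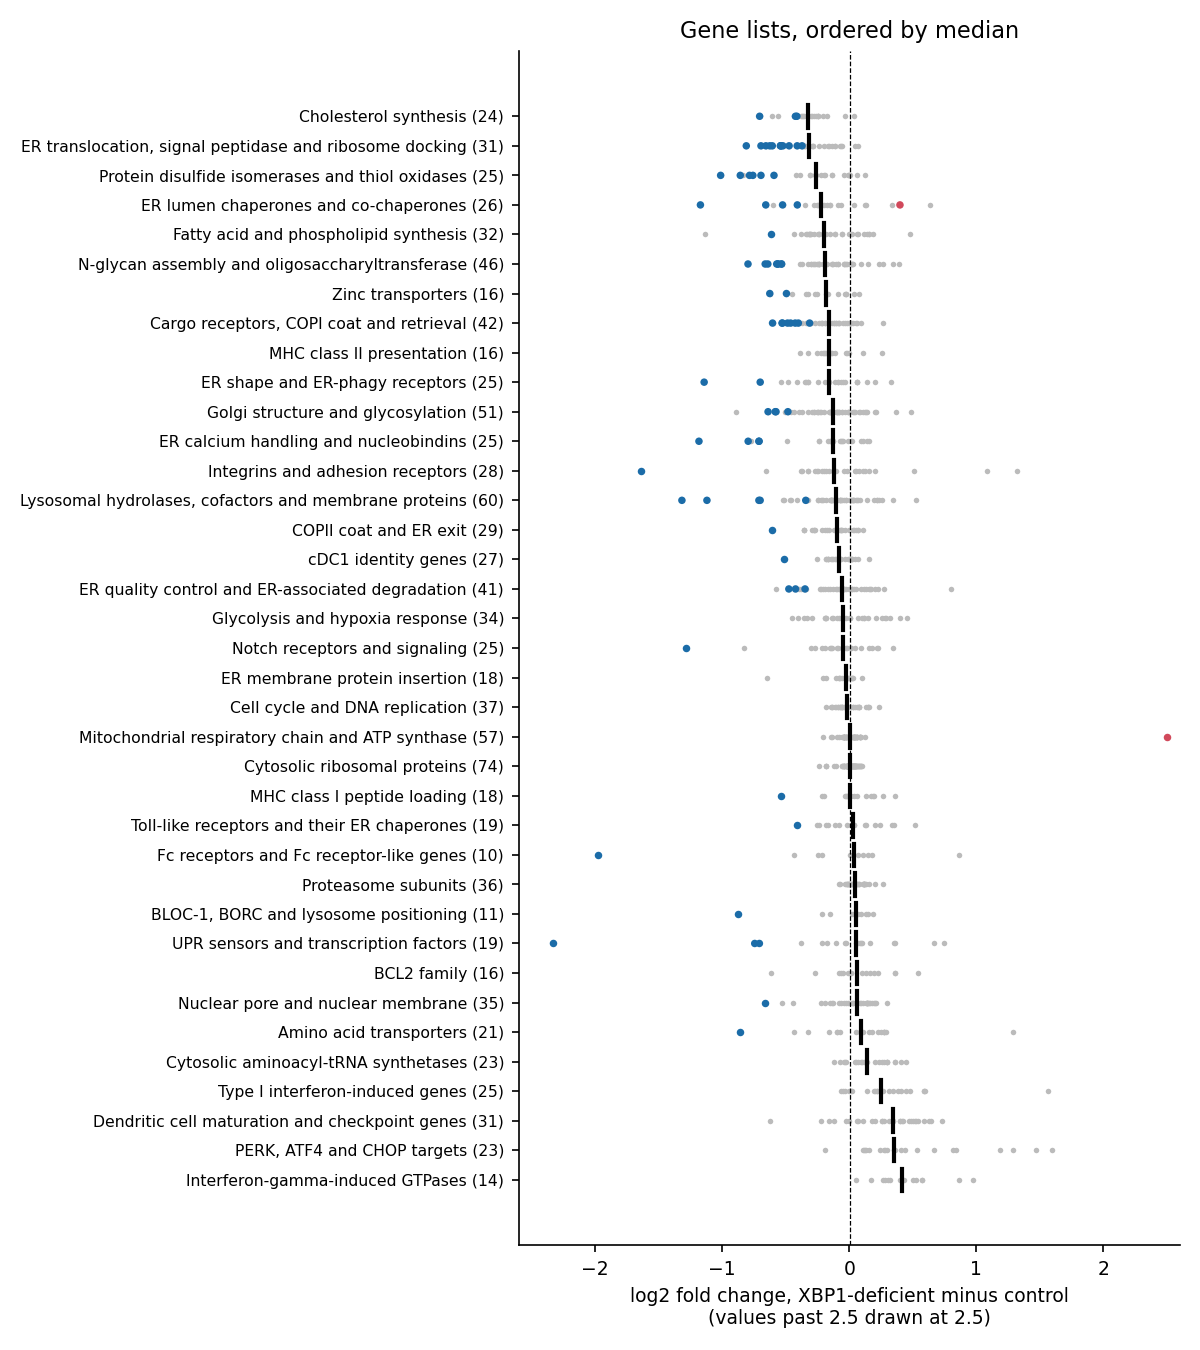
Each row is a gene list with its number of tested members in brackets, each point is a member at its log2 fold change (XBP1-deficient minus control), and the black bar is the list median. Blue and red points have an adjusted p under 0.05, and the dashed line is the median of all genes. Medians run from -0.32 for cholesterol synthesis to 0.42 for interferon-gamma-induced GTPases, and the secretory lists near the top hold most of the coloured points.

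Promoter sequence was searched for binding motifs of the unfolded protein response, from 250 bases before to 50 bases after each RefSeq start on GRCm38.p6, on both strands. The motifs were the ER stress element (ERSE, CCAAT and CCACG with 9 bases between them), ERSE-II (ATTGG and CCACG with 1 base between them), the core of the unfolded protein response element (UPRE), TGACGTGG, and the shorter ACGTG, which the UPRE core contains. Promoters were found for 8905 of the 10951 genes and for 43 of the 51 lower DEGs. The UPRE core was present in 3 of these 43 (6.98%) against 1.02% of all promoters, and in 2 of the 24 with a promoter that are on neither list (8.33%). ACGTG was present in 60% of the 10 lower DEGs of the XBP1s list, 29.2% of the 24 on neither list and 30.1% of all promoters. An exact ERSE was in 14 promoters in all, and an ERSE-II in 8. A match shows the letters only and is not a site shown to bind a factor, and other spacings were not searched.

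An ERSE, ERSE-II or UPRE core was found beside 9 genes that changed. The promoters of 6 are shown, with the motif in capitals, and those of *Slc30a5* and *Tmem248* (UPRE core) and *Krtcap2* (ERSE-II) are not. *Nucb1* (chr7:45510359-45510658, minus strand), *Txndc11* (chr16:11134483-11134782, minus strand) and *Kcnab2* (chr4:152477500-152477799, minus strand) are on neither list and fell by 0.80, 1.01 and 0.67. *Txndc5* (chr13:38527865-38528164, minus strand) is an XBP1s target. *Dnajc3* (chr14:118937682-118937981, plus strand) and *Hspa5* (chr2:34771840-34772139, plus strand) each hold an exact ERSE, 105 and 65 bases before the start, and moved in opposite directions (-0.52 and 0.40).
Nucb1: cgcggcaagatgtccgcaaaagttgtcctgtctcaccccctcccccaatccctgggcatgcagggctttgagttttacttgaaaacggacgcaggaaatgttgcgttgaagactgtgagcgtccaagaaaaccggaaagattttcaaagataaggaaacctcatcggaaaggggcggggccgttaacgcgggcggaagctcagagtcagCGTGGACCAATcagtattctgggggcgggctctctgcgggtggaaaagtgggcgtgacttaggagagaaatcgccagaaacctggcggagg
Txndc11: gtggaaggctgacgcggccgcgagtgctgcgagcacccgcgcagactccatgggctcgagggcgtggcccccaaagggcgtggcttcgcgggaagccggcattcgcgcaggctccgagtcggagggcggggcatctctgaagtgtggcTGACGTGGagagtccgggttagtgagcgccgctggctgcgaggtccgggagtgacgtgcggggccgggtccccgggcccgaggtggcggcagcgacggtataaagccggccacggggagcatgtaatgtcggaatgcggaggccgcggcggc
Kcnab2: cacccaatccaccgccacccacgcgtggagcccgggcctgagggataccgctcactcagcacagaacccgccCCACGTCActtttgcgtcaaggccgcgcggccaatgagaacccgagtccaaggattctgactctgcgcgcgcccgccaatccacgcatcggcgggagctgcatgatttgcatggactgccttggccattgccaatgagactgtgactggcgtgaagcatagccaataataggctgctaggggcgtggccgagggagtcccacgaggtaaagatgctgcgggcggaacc
Txndc5: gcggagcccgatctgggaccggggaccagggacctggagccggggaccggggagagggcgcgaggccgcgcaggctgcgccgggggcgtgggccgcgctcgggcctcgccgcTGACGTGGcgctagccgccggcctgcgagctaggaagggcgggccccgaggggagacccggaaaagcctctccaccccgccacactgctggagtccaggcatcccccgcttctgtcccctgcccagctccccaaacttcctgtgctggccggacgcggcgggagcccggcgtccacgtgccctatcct
Dnajc3: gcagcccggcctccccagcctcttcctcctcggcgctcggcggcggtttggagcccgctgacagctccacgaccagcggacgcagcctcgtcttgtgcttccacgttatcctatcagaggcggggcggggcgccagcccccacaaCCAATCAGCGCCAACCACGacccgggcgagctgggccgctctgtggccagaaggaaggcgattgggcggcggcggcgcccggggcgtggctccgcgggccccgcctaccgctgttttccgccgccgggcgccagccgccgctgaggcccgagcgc
Hspa5: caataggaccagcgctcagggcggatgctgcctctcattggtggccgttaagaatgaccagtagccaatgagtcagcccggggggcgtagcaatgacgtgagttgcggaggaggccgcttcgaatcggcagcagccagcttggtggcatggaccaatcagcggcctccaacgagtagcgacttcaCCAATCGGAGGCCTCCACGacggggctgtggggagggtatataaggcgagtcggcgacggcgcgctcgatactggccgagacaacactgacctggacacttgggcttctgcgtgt

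Several regulators were lowered as well. *Creb3l2* (chr6:37327255-37442146) encodes an ER-anchored transcription factor of the secretory pathway, released by cleavage in the Golgi. It stood at 8.65, 12.3, 10.7 and 8.48 CPM in controls and at 1.22, 1.69, 2.14 and 2.91 CPM in XBP1ΔDC, or 986 counts in all against 195. Every XBP1ΔDC pool lay well below every control (5.02-fold lower, log2 fold change -2.33, SE 0.298, adjusted p = 0.00158 from edgeR), the largest fall among the DEGs. *Eif2ak3*, which encodes the stress sensor PERK, was at 47.4, 44.9, 52.2 and 42.9 CPM in controls and 30.6, 23.4, 26.0 and 34.7 CPM in XBP1ΔDC (-0.71, SE 0.124, adjusted p = 0.0151 from edgeR). *Atf6*, the sensor of the remaining branch, overlapped between groups (-0.21, adjusted p = 0.678 from edgeR), as did *Ern1* (-0.17, adjusted p = 0.95 from edgeR). Of 19 stress sensors and transcription factors of this response 9 were lower and 10 higher, with a median of 0.06, and *Creb3l2*, *Eif2ak3* and *Xbp1* passed. *Rreb1* (-0.68), a zinc finger transcription factor, passed narrowly, with an adjusted p of 0.0478 from edgeR.

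Cholesterol synthesis had the lowest median of the function lists, -0.32, with 23 of 24 genes lower and 19 at an unadjusted p under 0.05. After adjustment 3 passed, among them *Srebf2* and *Nsdhl*. *Srebf2*, the ER-held transcription factor that controls this pathway, fell by 0.41 (SE 0.074) and *Nsdhl*, a RIDD list member, by 0.42. The study's lists include 12 of the 24 tested genes, and the other 12 were all lower, with a median of -0.34. In XBP1ΔDC replicates 1 to 4 the list median lay 0.47, 0.45, 0.22 and 0.15 below the control mean on the log2 scale, and in control replicates it deviated from that mean by at most 0.11, so no pool overlapped. In the fatty acid and phospholipid list, 23 of 32 genes were lower and *Elovl6*, an ER fatty acid elongase, passed (-0.62). *Elovl5* and *Elovl1* had values of -0.21 and -0.06 with overlapping groups.

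Several lowered genes belong to families of receptors and transporters. *Itgb2* (chr10:77530252-77565708) encodes CD18, the shared beta chain of the leukocyte integrins. It stood at 842, 809, 819 and 855 CPM in controls and at 226, 301, 241 and 301 CPM in XBP1ΔDC. The gap between the groups was far wider than the spread within either, and this was the smallest p of all genes (3.11-fold lower, log2 fold change -1.64, SE 0.0998, adjusted p = 7.06e-06 from edgeR). Among 28 integrins and adhesion receptors 18 were lower, 6 of them at an unadjusted p under 0.05, and *Itgb2* alone passed after adjustment. *Itgal*, which encodes a partner of CD18, had a value of -0.32 with overlapping groups (adjusted p = 0.479 from edgeR), *Itgb7* -0.32 without overlap (adjusted p = 0.341 from edgeR) and *Itgb1* 0.07.

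*Fcrla* (chr1:170917576-170927583) encodes an Fc receptor-like protein that stays inside the cell, in the ER, and binds immunoglobulins. It was at 62.1, 53.1, 67.7 and 66.9 CPM in controls and 13.4, 20.1, 14.9 and 15.3 CPM in XBP1ΔDC. All 4 XBP1ΔDC pools were far below the controls (3.93-fold lower, -1.97, SE 0.167, adjusted p = 0.000118 from edgeR). Of 10 tested Fc receptor genes 4 were lower, 3 of them at an unadjusted p under 0.05, and *Fcrla* alone passed after adjustment. Its neighbour in the family, *Fcrlb*, had a value of -0.43 without overlap (adjusted p = 0.638 from edgeR).

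*Slc1a5*, a plasma membrane importer of glutamine, was at 203, 208, 184 and 185 CPM in controls and 109, 111, 101 and 109 CPM in XBP1ΔDC (-0.86, SE 0.069, adjusted p = 9.88e-05 from edgeR). Of 21 amino acid transporters it alone passed, and *Slc7a5* had a value of 0.27 with overlapping groups. *Notch4* was at 42.6, 47.9, 52.9 and 42.4 CPM in controls and 19.6, 22.4, 19.2 and 15.4 CPM in XBP1ΔDC (-1.28, SE 0.134, adjusted p = 0.000381 from edgeR). The other receptors *Notch1* (-0.09) and *Notch2* (-0.05) overlapped between groups. *Fgl2*, a secreted and membrane-bound immune regulator, was at 1399, 1234, 1456 and 1369 CPM in controls and 794, 792, 786 and 734 CPM in XBP1ΔDC (-0.81, SE 0.115, adjusted p = 0.00287 from edgeR).

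*Pkd1* (-0.71) encodes polycystin-1, a large membrane receptor, *Tspan17* (-0.94) a tetraspanin, *Evi2a* (-0.66) a membrane protein, *Kcnab2* (-0.67) a cytosolic subunit of potassium channels, and *Entpd7* (-1.12) a nucleotidase of intracellular vesicles. *Nup210* encodes a membrane-spanning protein of the nuclear pore. It stood at 735, 857, 645 and 701 CPM in controls and 461, 547, 439 and 414 CPM in XBP1ΔDC (-0.66, SE 0.102, adjusted p = 0.00596 from edgeR). Of 35 nuclear pore and nuclear membrane genes 3 were lower at an unadjusted p under 0.05 and *Nup210* alone passed after adjustment, while *Nup205* (0.14) and *Nup155* (0.06) overlapped between groups. *2310067B10Rik* had a value of -0.68. Membrane proteins that passed below the fold limit were the proteoglycan *Sdc3* (-0.32), the protease *Ece1* (-0.29) and *Sema4f* (-0.52), and the same was true of the cytosolic kinase *Limk1* (-0.51), the endosomal *Leprot* (-0.42) and the mitochondrial enzymes *Oat* (-0.35) and *Idh2* (-0.46).

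**Figure D3:**
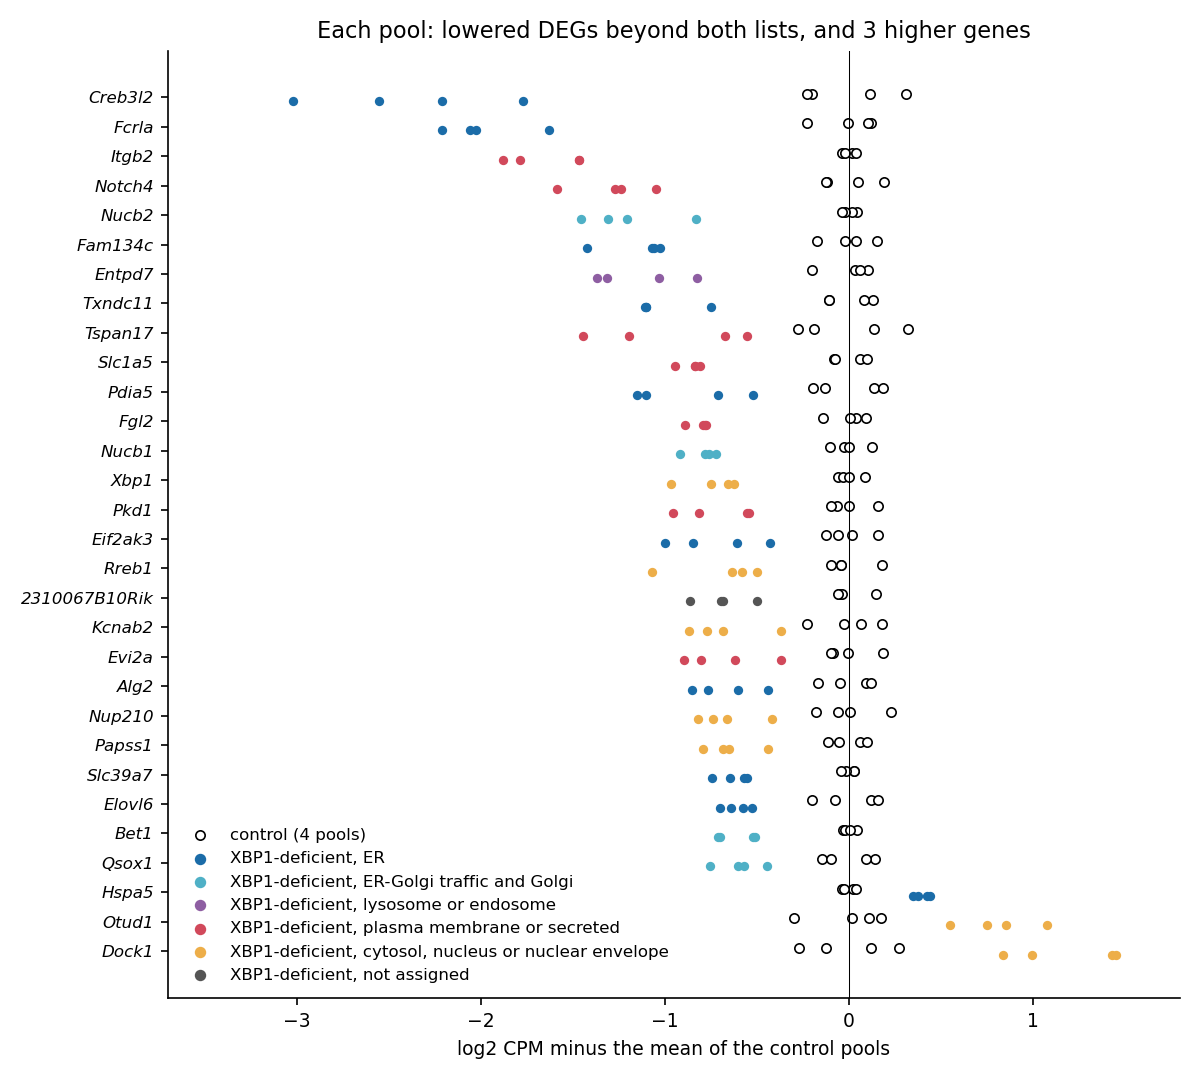
Each row is a gene and each point a pool, placed at its log2 CPM minus the mean of the 4 control pools. Open points are controls and filled points XBP1-deficient pools, coloured by compartment. For the lowered DEGs on neither list that are shown and for the higher *Hspa5*, *Otud1* and *Dock1*, filled and open points do not overlap.

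Among lysosome and endosome genes 9 fell, 5 of them DEGs. *Gm2a* (-0.71), *Abca2* (-1.32), *Hgsnat* (-0.70) and *Bloc1s1* (-0.87) were DEGs from the RIDD list and *Entpd7* on neither list. Below the fold limit and on neither list, *Naaa*, a lysosomal lipid amidase that is also a marker of cDC1s, was at 4173, 4109, 3926 and 4356 CPM in controls and 2705, 2966, 2897 and 3052 CPM in XBP1ΔDC (-0.51, SE 0.0555, adjusted p = 0.000495 from edgeR). It was the only one of the cDC1 identity genes to pass. *Psap*, the precursor of the saposins that activate lipid breakdown, fell by 0.34 and *Grn*, the precursor of lysosomal granulins, by 0.41. Of 60 lysosomal genes 41 were lower, with a median of -0.11, and in a list of 11 genes for lysosome positioning *Bloc1s1* alone passed while 8 were higher (median 0.05). RIDD list members that passed elsewhere include *Rnf130* (-1.12), *Tmem238* (-1.16) and the membrane progestin receptor *Paqr7* (-1.03). *Snd1* (-0.70), an RNA-binding nuclease, is on the XBP1s list, as is *Tmem248* (-0.42).

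The 3 XBP1ΔDC IRE1truncDC pools, which share the controls with XBP1ΔDC, were read beside these values. Over the 28 lower DEGs of the ER, ER-Golgi traffic and the Golgi, the median log2 fold change against control was -0.71 in XBP1ΔDC and -0.63 in XBP1ΔDC IRE1truncDC, where 15 of the 28 passed as well by edgeR, in a comparison that called 0.292% of all genes lower. Over the other 23 lower DEGs the medians were -0.74 and -0.22, and 1 of 23 passed. The direct test between both Cre-positive genotypes gave 8 genes with an adjusted p under 0.05 (0.0731% of genes tested), all among the 51: *Itgb2*, *Slc1a5*, *Fcrla*, *Fam134c*, *Notch4*, *Rnf130*, *Fgl2* and *Bloc1s1*. *Itgb2* was at 997, 923 and 828 CPM in XBP1ΔDC IRE1truncDC replicates 1 to 3, within or above the range of the controls. *Fcrla* was at 90.3, 61.4 and 101 CPM and *Slc1a5* at 215, 206 and 201 CPM in the same replicates, so both also reached the control range or passed it. *Sec61b* differed from these, at 54.4, 55.8 and 55.8 CPM, the level of the XBP1ΔDC pools. *Creb3l2* was at 3.01, 2.28 and 1.74 CPM, also far below the controls. For the 43 other lower DEGs the difference between both Cre-positive genotypes did not pass, which does not show that they were alike.

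**Figure D4:**
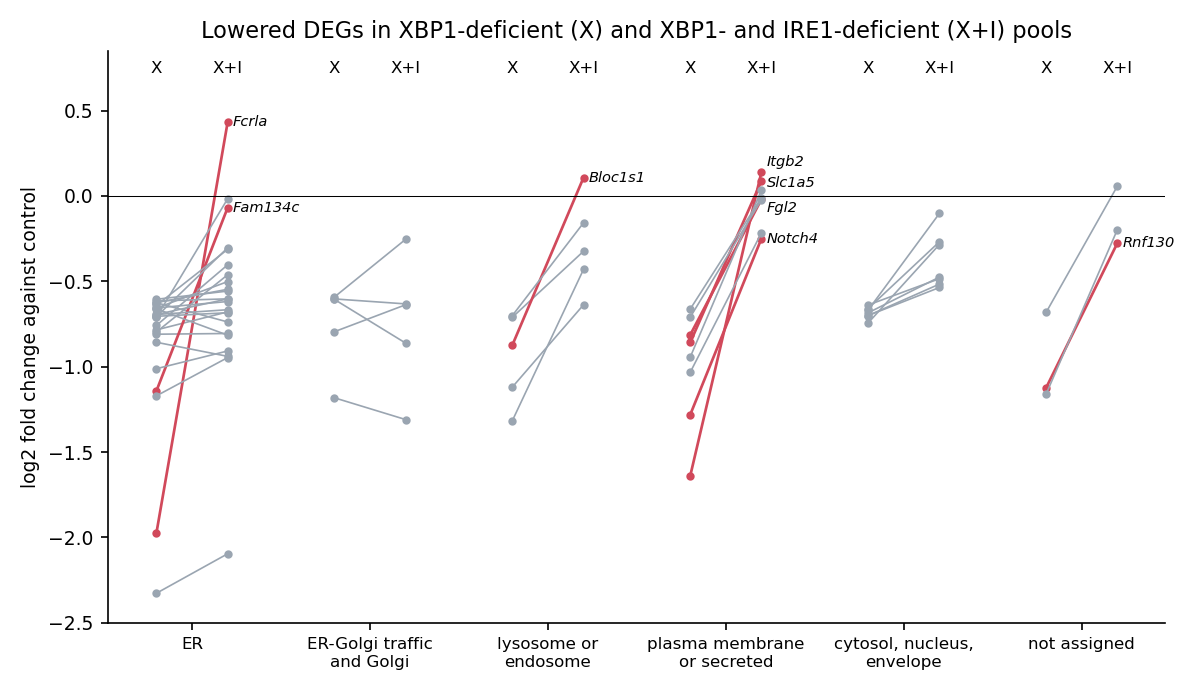
Each line is a lowered DEG, with its log2 fold change against control in the XBP1-deficient pools (X) on the left and in the XBP1- and IRE1-deficient pools (X+I) on the right, grouped by compartment. Red lines are the 8 genes with an adjusted p under 0.05 in the direct test between both genotypes. They end near or above 0 or at about -0.3, whereas most ER lines stay level.

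Raised genes were few. *Dock1*, which activates the small GTPase Rac in cell movement and engulfment, was at 3.01, 3.33, 3.94 and 4.37 CPM in controls and 6.48, 9.79, 7.23 and 9.94 CPM in XBP1ΔDC (1.19, SE 0.216, adjusted p = 0.0192 from edgeR). *Dock2*, the main DOCK gene of leukocytes, had a value of 0.02 with overlapping groups. *Otud1*, a deubiquitinase, was at 12.1, 12.6, 11.3 and 9.11 CPM in controls and 20.3, 16.4, 23.6 and 18.8 CPM in XBP1ΔDC (0.81, SE 0.157, adjusted p = 0.0296 from edgeR). Both were without overlap between groups, and in 22 alternative settings the call of *Dock1* was lost in 7 and that of *Otud1* in 9, the replicate block and fits without single pools among them. XBP1ΔDC IRE1truncDC pools were compared with the same controls by edgeR. There *Otud1* (1.14, adjusted p = 0.0100) and *Hspa5* (0.76, adjusted p = 0.00314) passed, and *Dock1* (0.90, adjusted p = 0.153) did not.

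*Cox6a2* encodes the muscle form of a subunit of cytochrome c oxidase. It had 4, 1, 2 and 1 counts in control replicates 1 to 4 and 48, 29, 22 and 20 counts in XBP1ΔDC replicates 1 to 4, with 26, 104 and 45 in the XBP1ΔDC IRE1truncDC pools. The fitted log2 fold change was 3.86 (SE 0.715, adjusted p = 0.0222 from edgeR). This call was lost in 9 of the 21 alternative settings that gave it an adjusted p, limma voom and the replicate block among them. DESeq2 did not count it as a DEG. No control pool reached 1 CPM, so the gene entered the test only through the Cre-positive pools and could only come out higher. It is also a marker of plasmacytoid dendritic cells. The list of 8 markers of those cells summed to 118 to 135 CPM in controls and 95.4 to 127 CPM in XBP1ΔDC, with overlap. *Bst2* was the most abundant of them in every pool. Of the 6 tested members 4 were lower, and *Cox6a2* and *Pacsin1* (0.29) were higher. *Ccr9* (-0.59) was at 14.02 to 17.45 CPM in controls and 5.72 to 13.43 CPM in XBP1ΔDC, without overlap. *Siglech* (-1.12) was at 3.03 to 5.53 CPM in controls and 1.18 to 3.52 CPM in XBP1ΔDC, with overlap. Neither of these passed the test. *Cox6a2* lies at chr7:128205435-128206387, 54.8 kb beyond the end of *Itgax*, the gene whose promoter drives Cre, and whether the Cre transgene has a part in the counts of *Cox6a2* was not tested. A coding gene on the opposite strand overlaps it, and whether counting used strand is not given in the sources used here. The same overlap concerns 19 of the 95 called genes with a position in GENCODE vM21. None of the other 56 subunits of the respiratory chain and ATP synthase tested passed, and the list median was 0.01.

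Below the threshold, targets of PERK, ATF4 and CHOP, which serve amino acid supply and the stress response, were higher as a list. Of 23 tested, 22 were higher, 12 of them at an unadjusted p under 0.05 and none after adjustment, with a median of 0.35. *Asns*, asparagine synthetase, came closest. It was at 7.25, 8.66, 10.4 and 3.57 CPM in controls and 25.05, 20.7, 20.3 and 16.9 CPM in XBP1ΔDC, without overlap (1.47, SE 0.315, adjusted p = 0.0522 from edgeR). *Trib3* (1.60), *Phgdh* (0.82), *Ddit3* (0.67), which encodes CHOP, and *Mthfd2* (0.40) also separated the groups, with adjusted p between 0.185 and 0.191 from edgeR. In a fit of the 8 pools alone *Asns*, *Trib3* and *Phgdh* were DEGs, while *Ddit3* and *Mthfd2* were not. Cytosolic aminoacyl-tRNA synthetases, which charge tRNAs, were higher in 18 of 23 cases with 8 at an unadjusted p under 0.05 and none after adjustment (median 0.14; *Gars* 0.30 and *Yars* 0.45). *Sars* and *Cars* are members of both lists. The ATF4 list median lay 0.41, 0.34, 0.42 and 0.37 above the control mean in XBP1ΔDC replicates 1 to 4, higher than in every control pool.

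**Figure D5:**
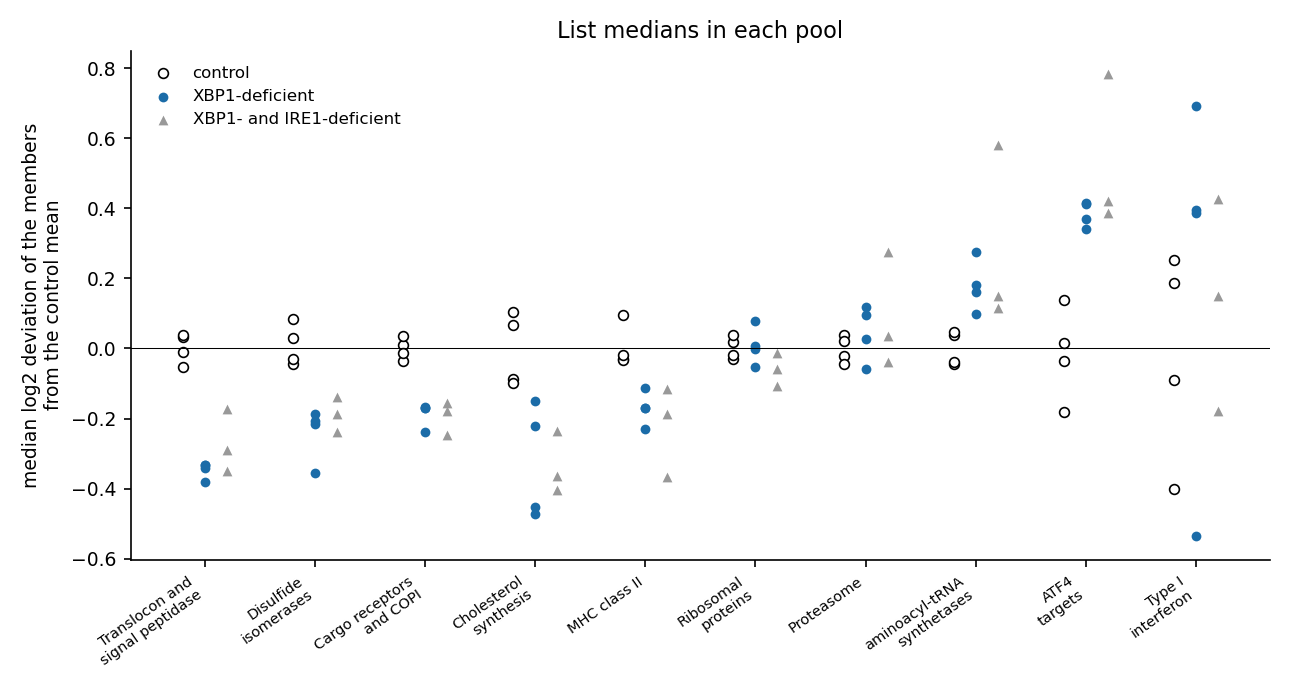
For 10 gene lists, each point gives a pool's median log2 deviation of the members from the control mean. Open circles are controls, filled circles XBP1-deficient pools and triangles XBP1- and IRE1-deficient pools. XBP1-deficient pools lie apart from controls for the secretory, cholesterol, MHC class II, aminoacyl-tRNA synthetase and ATF4 lists, and overlap with them for ribosomal proteins, the proteasome and type I interferon genes.

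Interferon-induced genes and maturation genes were higher in most members but varied between pools. Type I interferon-induced genes were higher in 22 of 25 cases with 3 at an unadjusted p under 0.05 (median 0.25; *Rtp4* 1.57 and *Mx1* 0.41), and the pool medians of XBP1ΔDC ranged from -0.54 to 0.69. All 14 interferon-gamma-induced GTPases were higher, 1 at an unadjusted p under 0.05 (median 0.42; *Gbp8* 0.97 and *Gbp2* 0.86), with pool medians from -0.61 to 1.09. For maturation and checkpoint genes the count was 25 of 31 (median 0.34; *Pdcd1lg2* 0.59, and *Tgfb1* -0.22). None passed after adjustment in these lists. MHC class II presentation genes were lower in 14 of 16 cases, with 6 at an unadjusted p under 0.05, 9 without overlap between groups and a median of -0.16. *H2-DMa*, which helps load peptides, was at 1154, 1065, 1036 and 1039 CPM in controls and 884, 920, 954 and 851 CPM in XBP1ΔDC (-0.25, SE 0.0634, adjusted p = 0.129 from edgeR). Its partner *H2-DMb1* had a value of -0.32. In MHC class I peptide loading only *Tapbp* (-0.53), a RIDD list member that holds the loading complex together, passed among 18 genes with a median of 0.01.

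Other basic functions showed little movement. Ribosomal proteins had a median of 0.01 over 74 genes with 1 at an unadjusted p under 0.05 (*Rpl10*, -0.24, followed by *Rplp0*, -0.12). Proteasome subunits had a median of 0.05 over 36 genes with none at an unadjusted p under 0.05 (*Psmb10* 0.27 and *Psmd14* 0.16 had the smallest). The same held for 37 cell cycle genes (median -0.02; *Ccnd1* -0.11 and *Cdc45* -0.18). Glycolysis and hypoxia genes had a median of -0.05 over 34 genes (*Aldoc* -0.40 and *Hif1a* 0.29), and BCL2 family genes of 0.06 over 16 (*Bmf* -0.62 and *Bcl2l1* 0.36). No gene passed after adjustment in these 5 lists by edgeR. With 4 pools a group, a miss of the test does not show that a gene was unchanged.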

How the data were processed

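cDC1s were sorted from B16 tumors after enrichment of CD45+ cells, and RNA-seq libraries were made with SMART-seq v4 and sequenced single-end. The authors aligned reads to mm10 and deposited raw counts per gene made with HTSeqCount, and the submitters' notes also name FastQC 0.11.8, Trimmomatic 0.39, STAR 2.7.3a and limma 3.42.2. The deposited normalized table was not used. Genes above 1 CPM in at least 4 of 11 pools were kept. Counts were fitted with edgeR 4.0.16 (TMM scaling, quasi-likelihood test, 3 genotypes in one model, R 4.3.3) and p-values were adjusted by Benjamini-Hochberg over all 10951 genes. The SE is the absolute log2 fold change divided by the square root of the test's F. Log2 CPM used a prior count of 2. The scripts were tested on simulated data. Members and gene lists were chosen with earlier results of these data known. Named genes were the called genes, the members with the smallest p in each list, and family members of called genes. Alternatives used limma 3.58.1 and DESeq2 1.42.0, other scalings and filters, a replicate block, omitted pools and marker sums as covariates. Protein sequences were not analysed here, and some single-gene results are not reported here.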

Additional observations from a re-analysis of the deposited data

Results flagged for a closer look

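In the direct test between both Cre-positive genotypes by edgeR, 8 lowered genes differed, all of them lower in XBP1ΔDC than in XBP1ΔDC IRE1truncDC pools. The log2 differences were -2.40 for *Fcrla*, -1.78 for *Itgb2*, -1.07 for *Fam134c*, -1.03 for *Notch4*, -0.98 for *Bloc1s1*, -0.95 for *Slc1a5*, -0.85 for *Rnf130* and -0.79 for *Fgl2*.

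Of 166 groups of 4 pools examined, 8 held a pool set apart from the other 3, and chance gives about 1 in 20 groups. The gap as a share of the group's range was 0.990 for *Txndc11*, 0.867 for *Fam134c* and 0.854 for *Fgl2* in XBP1ΔDC, and 0.898 for *Erp44* and 0.916 for *2310067B10Rik* in controls. For list medians in XBP1ΔDC pools it was 0.961 for cargo receptors and COPI, 0.952 for ER chaperones and 0.831 for ER shape and ER-phagy. All of these pools stayed on their own group's side. For the genes this was fixed beforehand, since they are DEGs and no called gene overlapped between groups.

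Among genes under the limit on low counts, some had counts in XBP1ΔDC pools and few or none in controls. Summed over 4 pools, *Pdgfrb* had 223 counts against 4 in controls, *Pxdn* 110 against 0, *Olfml2b* 64 against 0, *P2ry13* 49 against 0 and *Arsg* 39 against 0. XBP1ΔDC replicate 2 had 0 counts of *Pdgfrb* and *Pxdn*, and XBP1ΔDC replicate 1 had 0 of *Arsg*. In a fit without the limit none of the 4696 genes under it had an adjusted p under 0.05 from edgeR. The genes named were picked for their small p in that fit.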

How the results depend on the processing

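The 51 lower DEGs were lower in each of the alternatives run. *Itgb2*, *Slc1a5*, *Fcrla* and *Fam134c* kept their call in all 22. The count of 3 higher DEGs changed to 11 by DESeq2, 6 in the 8 pools alone and 0 with the replicate block. At an adjusted p under 0.05, DESeq2 gave 163 lower and 18 higher genes, and the 8 pools alone gave 8 higher. Without the fold limit 94 genes were lower, 55 of them on neither list. With the stroma marker sum as a covariate, chosen after seeing the data, 4 DEGs were lower, all on neither list, 0 were higher, and 4 lower and 0 higher genes had an adjusted p under 0.05. The cause was not tested. Leaving out 1 pool gave 37 to 52 lower and 0 to 6 higher DEGs, 18 to 29 lower DEGs on neither list, and 57 to 100 lower and 0 to 10 higher genes by adjusted p. The lower count by adjusted p was 57 without control replicate 1, 60 without control replicate 2 and 61 without XBP1ΔDC replicate 4, and 18 DEGs on neither list were left without control replicate 2. *Ern1*, not called, had a log2 fold change of -0.17, which turned to 0.0116 without control replicate 1 (-0.31 without control replicate 4) and to 0.25 with the stroma covariate. *Asns* passed by DESeq2, without the limit on low counts, in the 8 pools alone and without XBP1ΔDC IRE1truncDC replicate 2. *Phgdh* and *Trib3*, also ATF4 list members, became DEGs by DESeq2, in the 8 pools alone and without that replicate. *Ddit3* became a DEG by DESeq2. Scaling moved the median of all genes to at most 0.03.

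Deviations of same-numbered pools correlated weakly, at 0.0878, 0.129, 0.0418 and 0.133. Their mean was 0.0979, against -0.0326 for pools with different numbers. Whether replicate numbers pair the pools was not tested. With the replicate block 40 genes were lower DEGs, 21 of them on neither list, and by adjusted p 59 were lower and 0 higher.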

Other observations

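*Ahrr*, the repressor of the aryl hydrocarbon receptor, lay under the limit on low counts and was chosen after its values were seen. It had 32, 18, 50 and 40 counts in control replicates 1 to 4, 4, 2, 1 and 0 in XBP1ΔDC replicates 1 to 4, and 0 in all 3 XBP1ΔDC IRE1truncDC pools. The groups did not overlap, but in the fit without the limit its adjusted p was 0.163 from edgeR.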
